A study of Mus musculus with 99 samples.

Results

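The mitochondrial genome of the mouse holds its own small set of genes, and every one of them has a row in the count table of this study of hair cells. All rows whose symbol starts with mt- were taken, which gave 37 of 55291 gene symbols: 13 protein-coding genes, 2 ribosomal RNA genes and 22 transfer RNA genes. They were followed in 99 single cells picked from the cochlea of C57BL/6 mice. The 32 wild-type outer hair cells (OHCs) came from Slc26a5-CreER/+; Ai9/+ mice at postnatal day 30. The 67 converted inner hair cells (cIHCs) came from Slc26a5-CreER/+; Rosa26Tbx2/+ mice at postnatal day 42; they are OHCs in which the transcription factor Tbx2 was expressed ectopically and which, per the labels, change toward inner hair cells. Cells of both groups carried the red fluorescent protein tdTomato and a Cre recombinase driven from the OHC gene Slc26a5. The groups follow the sample titles; the time of Cre induction is not in the labels. Since the groups differ in both age and genotype, the parts of these cannot be told apart. No label ties a cell to an animal, and each group is therefore treated as 1 sample: no test was made, and the 95% intervals given cover counting error only. Levels are CPM, a gene's counts scaled to the total counts of a cell, or of the summed cells of a group (pooled CPM).

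Mitochondrial DNA is a compact circle that is read from both of its strands into long precursor RNAs. Transfer RNAs lie between most of the other genes, and cutting at them releases the ribosomal RNAs and messenger RNAs. The 2 ribosomal RNAs build the mitochondrial ribosome, and the 13 messenger RNAs encode core subunits of respiratory complexes I, III and IV and of ATP synthase (complex V). Most genes are read in the heavy-strand precursor, while mt-Nd6 and 8 transfer RNAs are read from the opposite strand. Hair cells depend on mitochondria for ATP and for calcium buffering, and outer hair cells hold many of them along the side wall.

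The marker levels fitted the labels, but the cIHCs formed 2 sets that have to be kept apart. Each cell had between 4677682 and 13792672 counts. The summed level of 8 OHC markers ran from 26330 to 73457 CPM in OHCs and from 248 to 5173 CPM in cIHCs, and that of 8 inner hair cell markers from 1205 to 4732 CPM in OHCs and from 3905 to 20277 CPM in cIHCs. Supporting cell and glia markers had a median sum of 0 in both groups. The summed 8 blood and macrophage markers ran from 0 to 127 CPM in OHCs and from 0 to 337 CPM in cIHCs, with 2 and 1 of the markers at 0 in every cell and pooled sums of 10.6 and 54.9 CPM. The 4 neuron markers had pooled sums of 256 and 527 CPM. The part of these lists in the results was not tested. In the cIHCs numbered 1 to 20 the nuclear 7S RNA gene Rn7s2 lay between 0 and 1.58 CPM, whereas it lay between 50.8 and 172 CPM in the cIHCs numbered 21 to 67 and between 61.9 and 207 CPM in OHCs. Snrpf and Slirp had no count in any of the 20 cells. These genes were picked after their values were seen, and the labels give no reason for the split. Reads of Y-linked genes were found in 24 OHCs and in 12 cIHCs, all among numbers 1 to 20. Xist reads were found in 4 OHCs, in 8 cIHCs of numbers 1 to 20 and in all 47 of numbers 21 to 67; 4 OHCs had neither. Total counts ran from 5656512 to 9287413 in OHCs, from 4677682 to 7939437 in numbers 1 to 20 and from 6661846 to 13792672 in numbers 21 to 67, and the median number of genes with reads was 6068.5, 7948.5 and 8641. Set, sex-linked reads and depth thus moved together, their part in the results was not tested, and values are given for each set.

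Mitochondrial transcripts took up a smaller share of the counts in cIHCs than in OHCs, and most of that difference lay in the 47 cIHCs numbered 21 to 67. Across OHCs the share had a lowest, median and highest value of 4.36%, 6.68% and 12.6%. In the cIHCs numbered 21 to 67 these were 1.61%, 3.08% and 7.94%, and 43 of the 47 lay below the lowest OHC. In the 20 other cIHCs they were 0.287%, 6.25% and 9.61%, and 2 of them lay below the lowest OHC. A cIHC had the higher share in 3.26% of all pairs of an OHC with a cIHC of numbers 21 to 67, and in 43.1% of the pairs with numbers 1 to 20. Summed over cells, the share was 6.93% in OHCs and 4.01% in all cIHCs, a log2 ratio of -0.79 (95% interval -0.791 to -0.789). The log2 ratio was -1.09 for numbers 21 to 67 and -0.14 for numbers 1 to 20. Among cells with Xist reads the medians were 6.05% in 4 OHCs, 8.05% in 8 cIHCs of numbers 1 to 20 and 3.08% in 47 cIHCs of numbers 21 to 67. Among cells with Y-linked reads they were 6.76% in 24 OHCs and 5.65% in 12 cIHCs. The 2 sets of cIHCs therefore differed in median within the cells with Xist reads. Their ranges there overlapped, at 4.88% to 9.61% in numbers 1 to 20 and 1.61% to 7.94% in numbers 21 to 67. The values are not scaled to a spike-in, so a lower mitochondrial level and more nuclear RNA cannot be told apart.

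**Figure D1:**
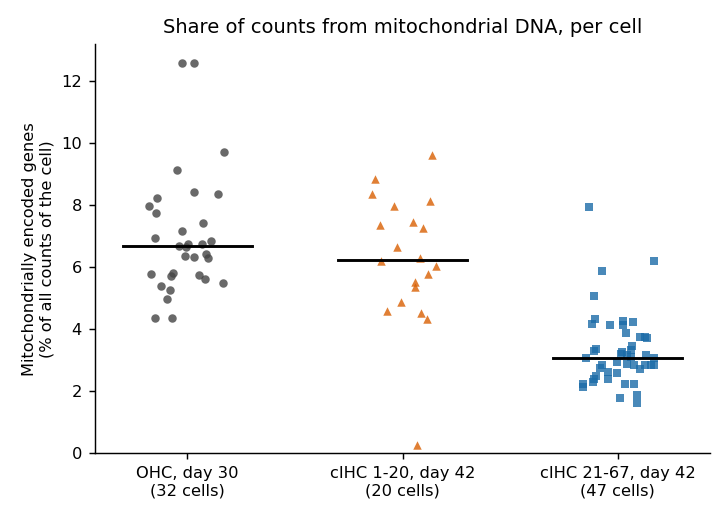
Mitochondrially encoded counts as a percent of all counts (vertical axis) in each OHC, each cIHC numbered 1 to 20 and each cIHC numbered 21 to 67; points are cells and bars are medians. The medians are 6.68%, 6.25% and 3.08%, and 43 of the 47 cells on the right lie below the lowest OHC.

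Several single cells stood far from their set. The lowest value of all, 0.287%, belonged to cIHC 11, and the next lowest of its set was 4.33%. That cell had reads for 9258 genes, and Slc17a8, the vesicular glutamate transporter of inner hair cells, stood at 1173 CPM there. It also gave the lowest level in numbers 1 to 20 of both ribosomal RNAs and of every messenger RNA. For mt-Atp8 and mt-Nd4l other cells shared its value of 0. For mt-Nd1, for example, cIHC 11 had 567 CPM and the next lowest cell of the set 4757 CPM. OHC 13 and OHC 4 both had 12.6%, ahead of 9.72% in the OHC that followed. Among numbers 21 to 67 the highest cell, cIHC 49, had 7.94% and the next 6.19%. Without cIHC 11 the pooled log2 ratio of the share for all cIHCs was -0.77.

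The 2 ribosomal RNAs were lower than in OHCs in both sets of cIHCs, and more so than most messenger RNAs in numbers 1 to 20. The 12S ribosomal RNA mt-Rnr1, of the small ribosomal subunit (chrM:70-1024), had a lowest, median and highest level of 1778, 3398 and 15692 CPM in OHCs. The same values were 390, 1017 and 12189 CPM in the cIHCs numbered 21 to 67 and 121, 1955 and 4081 CPM in numbers 1 to 20. The ranges overlapped, with a log2 ratio of pooled CPM of -1.51 for numbers 21 to 67 and -0.90 for numbers 1 to 20. The 16S ribosomal RNA mt-Rnr2, of the large subunit (chrM:1094-2675), ran from 8826 over 14333 to 44771 CPM in OHCs. It ran from 1975 over 5529 to 21506 CPM in numbers 21 to 67 and from 233 over 6908 to 14392 CPM in numbers 1 to 20. Its log2 ratios were -1.36 and -1.07. In 5.45% and 7.5% of pairs with an OHC the cIHC had the higher mt-Rnr2 level, so both sets lay mostly under the OHCs. Single cells weighed on mt-Rnr1: OHC 4 gave 13.2% of its counts in OHCs, and cIHC 49 gave 19.2% of those in numbers 21 to 67.

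Within the mitochondrial counts alone, which do not depend on nuclear RNA, ribosomal RNA made up 28.8% in OHCs and 20.3% in all cIHCs (log2 ratio of the shares -0.51). The share was 15.5% in numbers 1 to 20 and 23.3% in numbers 21 to 67. Its lowest, median and highest values per cell were 19.9%, 27.2% and 48.1% in OHCs, 9.76%, 15.2% and 22.9% in numbers 1 to 20, and 11.8%, 21.2% and 42.5% in numbers 21 to 67. The set whose total share was near that of OHCs thus had the lowest ribosomal RNA share. The pooled balance of the 2 ribosomal RNAs varied less between the sets. There were 0.251 mt-Rnr1 counts per mt-Rnr2 count in the summed OHCs, 0.284 in numbers 1 to 20 and 0.226 in numbers 21 to 67. Over cells the ranges were wide and overlapped, at 0.146 to 0.351, 0.196 to 0.518 and 0.123 to 0.567.

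**Figure D2:**
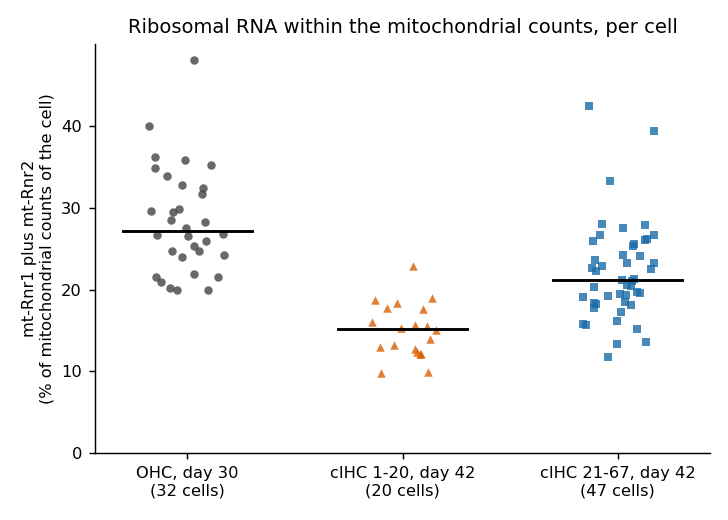
Counts of mt-Rnr1 and mt-Rnr2 together as a percent of the mitochondrial counts (vertical axis) of each cell in the 3 sets; points are cells and bars are medians. The medians are 27.2% in OHCs, 15.2% in cIHCs 1 to 20 and 21.2% in cIHCs 21 to 67.

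All 13 messenger RNAs had a lower pooled level in the 67 cIHCs than in OHCs, with log2 ratios from -0.09 for mt-Nd5 to -2.14 for mt-Atp8. Together they made up 4.93% of all counts in OHCs, 5.32% in numbers 1 to 20 and 2.49% in numbers 21 to 67. Their median log2 ratio was -0.96, beside 0.25 for the 10041 genes of the table that reached 10 CPM in either group. It was -1.35 beside 0.27 for numbers 21 to 67, and -0.20 beside 0.16 for numbers 1 to 20. Of the 14 messenger and ribosomal RNAs with at least 10 CPM, 7 were at least 2-fold lower in all cIHCs, against 14.3% of all genes. For numbers 21 to 67 it was 10 of 14 against 14.8%, and for numbers 1 to 20 it was 3 of 14 against 17.7%, a share near that of all genes. All 14 were lower to some degree in all cIHCs, against 41% of all genes, and in numbers 21 to 67, against 40.5%; in numbers 1 to 20 it was 10 of 14, against 44.4%. None was at least 2-fold higher in all cIHCs, in numbers 1 to 20 or in numbers 21 to 67, against 26.3%, 24.9% and 26.9% of all genes. With TMM scaling, which shifts every log2 ratio by -0.19 for all cIHCs, or with levels taken relative to nuclear counts, the 15 messenger and ribosomal RNAs were still all lower in all cIHCs and in numbers 21 to 67, and 11 of 15 were lower in numbers 1 to 20.

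The 7 subunits of complex I, which takes electrons from NADH, differed in their ratios. The gene mt-Nd1 (chrM:2751-3707) had a lowest, median and highest level of 5044, 8993 and 18092 CPM in OHCs, of 1925, 3674 and 8025 CPM in the cIHCs numbered 21 to 67, and of 567, 8534 and 14855 CPM in numbers 1 to 20. The first of these cIHC sets lay wholly under the OHC median and the other overlapped most of the OHC range, with log2 ratios of -1.35 and -0.17. For mt-Nd2 (chrM:3914-4951) the values were 2954, 4653 and 8832 CPM in OHCs, 922, 1729 and 4672 CPM in numbers 21 to 67, and 248, 6504 and 10215 CPM in numbers 1 to 20. Here the pooled levels of the sets lay on either side of OHCs, with log2 ratios of -1.45 in numbers 21 to 67 and 0.27 in numbers 1 to 20 (0.12 with TMM scaling). The gene mt-Nd4 (chrM:10167-11544) ran over 1551, 5054 and 11183 CPM in OHCs, over 1483, 2714 and 6188 CPM in numbers 21 to 67, and over 291, 7327 and 12551 CPM in numbers 1 to 20, with log2 ratios of -0.94 and 0.42 (0.27 with TMM scaling).

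Late in the heavy-strand transcript, mt-Nd5 and the gene on the strand opposite to it stayed closer to their OHC level in numbers 21 to 67. The largest complex I subunit here, mt-Nd5 (chrM:11742-13565), had a lowest, median and highest level of 732, 3028 and 5182 CPM in OHCs, 1132, 2268 and 4118 CPM in numbers 21 to 67, and 143, 4435 and 7022 CPM in numbers 1 to 20. Its log2 ratios were -0.37 and 0.54, above those of the complex I genes named so far in each set. The light-strand gene mt-Nd6 (chrM:13552-14070) ran over 307, 1282 and 3012 CPM in OHCs, 527, 1107 and 2267 CPM in numbers 21 to 67, and 51.7, 1163 and 1811 CPM in numbers 1 to 20. Its log2 ratios of -0.24 and -0.20 were the closest to each other between the sets among the 13 genes. The last 14 bases of mt-Nd5 and mt-Nd6 overlap on opposite strands, and the sources used here do not say whether counting used the strand, so reads there and antisense reads elsewhere cannot be assigned with certainty.

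As a share of the mitochondrial total, mt-Nd5 made up 4.30% of counts in summed OHCs, 6.89% in numbers 1 to 20 and 7.07% in numbers 21 to 67. Its share per cell ran from 1.47% to 6.29% in OHCs, from 4.98% to 8.40% in numbers 1 to 20 and from 3.73% to 11.2% in numbers 21 to 67. Of the 15 genes it had the highest log2 ratio of shares in numbers 1 to 20 (0.68), and in numbers 21 to 67 (0.72) it came after mt-Nd6 (0.86). There were 0.317 mt-Nd5 counts per mt-Nd1 count in summed OHCs, 0.519 in numbers 1 to 20 and 0.623 in numbers 21 to 67. The share of mt-Nd6 was 1.91% in OHCs, 1.83% in numbers 1 to 20 and 3.45% in numbers 21 to 67, so here the sets parted, and mt-Nd6 counts per mt-Nd5 count were 0.444, 0.266 and 0.488. Complex I as a whole made up 35.1% of mitochondrial counts in OHCs, 43.5% in numbers 1 to 20 and 36.5% in numbers 21 to 67.

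The small complex I genes mt-Nd3 and mt-Nd4l had few counts. The gene mt-Nd3 (chrM:9459-9806) had a lowest, median and highest level of 20.3, 53.2 and 134 CPM in OHCs, 3.03, 20.9 and 44.3 CPM in numbers 21 to 67, and 0.148, 9.05 and 69.4 CPM in numbers 1 to 20. It was lower in both sets, with log2 ratios of -1.495 and -1.95, but its near-identical nuclear copy moved the other way in numbers 1 to 20, as described with the copies. The gene mt-Nd4l (chrM:9877-10173) was the scarcest messenger RNA in OHCs and in numbers 21 to 67, with pooled levels of 3.70 CPM in OHCs, 1.91 CPM in numbers 21 to 67 and 1.34 CPM in numbers 1 to 20. Its log2 ratios were -0.95 (interval -1.09 to -0.81) and -1.46 (-1.70 to -1.23), and 15.4% of its OHC counts came from 1 cell.

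Complex III has a single mitochondrial subunit, cytochrome b, and its gene mt-Cytb (chrM:14145-15288) gave the most messenger RNA counts. Its lowest, median and highest levels were 6721, 13574 and 21059 CPM in OHCs, 4517, 7659 and 15131 CPM in numbers 21 to 67, and 732, 14412 and 18863 CPM in numbers 1 to 20. The log2 ratio was -0.83 in numbers 21 to 67, where 5.45% of pairs had the higher level in the cIHC, and -0.05 in numbers 1 to 20, where 49.5% did. Its share of the mitochondrial counts was 20.0% in OHCs, 21.3% in numbers 1 to 20 and 23.99% in numbers 21 to 67.

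Complex IV, cytochrome c oxidase, has 3 mitochondrial subunits. The catalytic subunit mt-Co1 (chrM:5328-6872) had a lowest, median and highest level of 6492, 9883 and 18315 CPM in OHCs, 2019, 5037 and 10260 CPM in numbers 21 to 67, and 461, 12369 and 18691 CPM in numbers 1 to 20. Its log2 ratios were -1.06 and 0.18, and the latter was 0.03 with TMM scaling, so no rise in numbers 1 to 20 can be read from it. The copper-binding subunit mt-Co2 (chrM:7013-7696) ran over 77.6, 135 and 372 CPM in OHCs, 21.6, 51.5 and 97.3 CPM in numbers 21 to 67, and 4.28, 74.9 and 630 CPM in numbers 1 to 20. In numbers 21 to 67 every cell lay under the OHC median, and the log2 ratios were -1.51 and -0.29. The subunit mt-Co3 (chrM:8607-9390) ran over 72.2, 174 and 542 CPM in OHCs, 31.4, 60.7 and 181 CPM in numbers 21 to 67, and 6.79, 88.9 and 682 CPM in numbers 1 to 20, with log2 ratios of -1.54 and -0.35. Both mt-Co2 and mt-Co3, like mt-Atp6, share their sequence with nuclear copies described further on, so these levels are uncertain.

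Complex V, the ATP synthase, has 2 mitochondrial subunits, and both were lower in both sets. The gene mt-Atp6 (chrM:7927-8607) had a lowest, median and highest level of 61.5, 184 and 641 CPM in OHCs, 26.8, 50.4 and 123 CPM in numbers 21 to 67, and 4.87, 70.5 and 509 CPM in numbers 1 to 20, with log2 ratios of -1.85 and -0.68. Its neighbour mt-Atp8 (chrM:7766-7969) ran over 5.75, 12.0 and 44.1 CPM in OHCs and over 1.63, 3.84 and 8.89 CPM in numbers 21 to 67. In numbers 1 to 20 it ran from 0 over 0.151 to 1.44 CPM, so that every cell lay below every OHC; such a separation held for 0.212% of all genes, and of the 15 only mt-Atp8 had it. No gene of the 15 lay below every OHC in all cIHCs or in numbers 21 to 67 (0.0896% and 0.0893% of all genes), and none lay above every OHC in all cIHCs, in numbers 1 to 20 or in numbers 21 to 67 (0.0797%, 0.172% and 0.0992%). Only 35 counts of mt-Atp8 were found in those 20 cells, against 1634 in the other 47, and the log2 ratios to OHCs were -5.70 (interval -6.23 to -5.22) and -1.76 (-1.85 to -1.67).

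The ratio of mt-Atp8 in numbers 1 to 20 thus differed widely from that of its neighbour mt-Atp6, although both lie on 1 messenger RNA. The sequence of mt-Atp8 is shown because its last 43 bases, in capitals, are also the first bases of mt-Atp6. Its other 161 bases lie outside mt-Atp6 (GRCm38, chrM:7766-7969, plus strand, from the GENCODE M21 transcripts). Whether they also occur in nuclear DNA was not tested, because copies were sought among transcripts only.
mt-Atp8: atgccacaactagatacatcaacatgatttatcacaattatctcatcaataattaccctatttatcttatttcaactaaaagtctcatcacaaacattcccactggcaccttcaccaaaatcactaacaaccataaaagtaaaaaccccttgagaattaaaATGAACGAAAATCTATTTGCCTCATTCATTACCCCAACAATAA
How reads over such an overlap were counted is not given in the sources used here, and whether the counting differed between the sets was not tested.

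**Figure D3:**
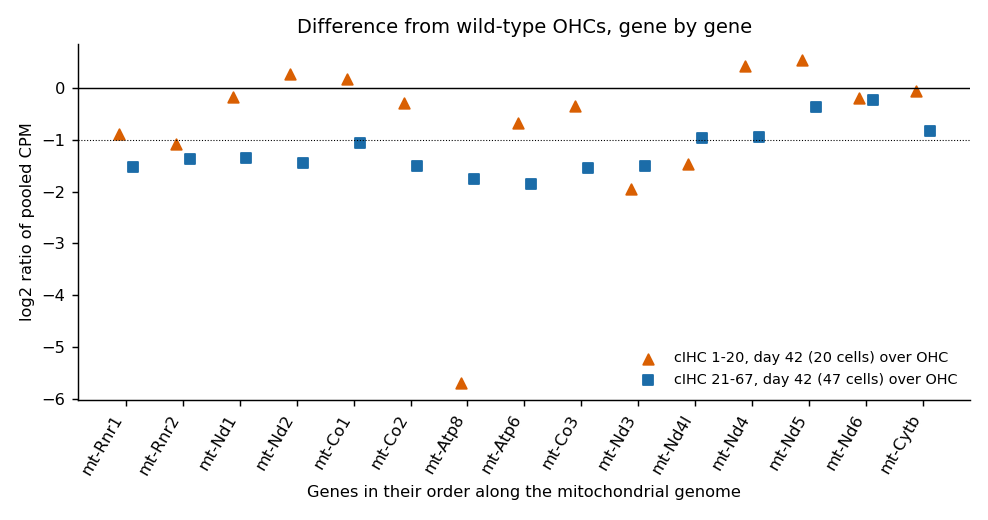
Log2 ratio of pooled CPM over OHCs (vertical axis) for the 2 ribosomal RNAs and 13 messenger RNAs in genome order, for cIHCs 1 to 20 (triangles) and cIHCs 21 to 67 (squares); the lines mark no difference and 2-fold lower. The squares lie between -1.85 and -0.24, and the triangles between -5.70 for mt-Atp8 and 0.54 for mt-Nd5.

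Levels compared per length showed that the order of the genes was nearly the same in the 3 sets. On this scale, pooled CPM per kilobase of gene, mt-Cytb came first in each set, with 12128 in OHCs, 11737 in numbers 1 to 20 and 6830 in numbers 21 to 67. Second was mt-Rnr2 in OHCs (10084) and in numbers 21 to 67 (3919), but mt-Nd1 in numbers 1 to 20 (8735). Across the 15 genes, which are not independent replicates, the order in OHCs had a Spearman rho of 0.93 with that in numbers 1 to 20 and of 0.96 with that in numbers 21 to 67. The span was wide for transcripts cut from shared precursors. In OHCs, mt-Co2, mt-Atp6, mt-Co3, mt-Nd3 and mt-Nd4l lay between 12.5 and 283 CPM per kilobase, while the 7 other messenger RNAs lay between 1634 and 12128, with mt-Atp8 left out at 66.3. The lowest of those 7 was 5.77-fold higher than the highest of the 5 in OHCs, 11.2-fold in numbers 1 to 20 and 14.4-fold in numbers 21 to 67.

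**Figure D4:**
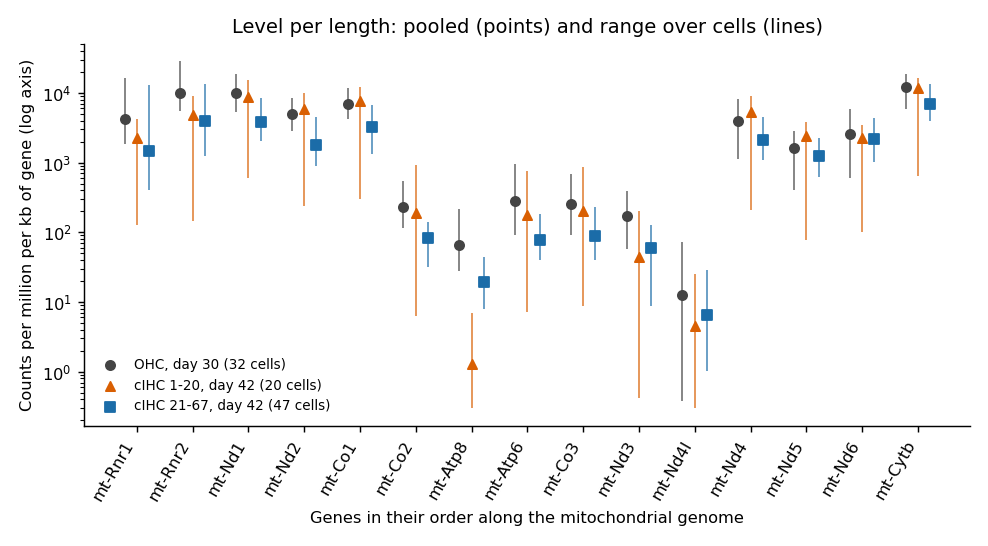
Pooled CPM per kilobase of gene (vertical axis, log scale) for the 15 genes in genome order in OHCs, cIHCs 1 to 20 and cIHCs 21 to 67; lines span the lowest to the highest cell, and those that reach 0 are drawn to the foot of the plot. The genes from mt-Co2 to mt-Nd4l lie far below the others in all 3 sets, and mt-Atp8 is lowest in cIHCs 1 to 20.

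These 5 genes are the ones that match a nuclear transcript with at most 1 mismatch over nearly their whole length. Their reads cannot be placed with certainty. Only transcripts were searched, so a nuclear copy of mt-Atp8, which lies between mt-Co2 and mt-Atp6, or of transfer RNAs could be missed. Alignment of the GENCODE M21 transcripts found 4 of them without a mismatch over nearly their whole length: mt-Co2 in Gm28661, mt-Atp6 in Gm10925, mt-Co3 in Gm28437 and mt-Nd4l in Gm10222. The fifth, mt-Nd3, differs from Gm28438 by 1 substitution, T3C, in 345 bases, counted from 1 at the gene's 5′ end with the mitochondrial base first. The first 876 bases of mt-Nd4 are also identical to Gm28439, and the last 483 of mt-Co1 match Gm29216 with 1 mismatch. All 7 copies lie together on the minus strand at chr1:24611535-24616197 (GRCm38).

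The starts of mt-Nd3 (chrM:9459-9506) and of Gm28438 (chr1:24613072-24613119, minus strand) are shown side by side because a single base, in capitals, is all that tells the 2 genes apart in the 345 bases compared.
mt-Nd3: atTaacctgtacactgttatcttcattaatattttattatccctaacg
Gm28438: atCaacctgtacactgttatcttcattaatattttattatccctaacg
The stretch of mt-Nd4 at chrM:10983-11082 shows where its copy ends: lower case is shared with Gm28439, and the capitals begin the 502 remaining bases of mt-Nd4, which that copy does not hold.
mt-Nd4: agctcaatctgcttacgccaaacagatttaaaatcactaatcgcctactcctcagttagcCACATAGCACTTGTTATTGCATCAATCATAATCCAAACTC

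In OHCs the copies of 3 of the genes took more counts than the genes themselves. There Gm28437 stood at 719 CPM against 199 CPM for mt-Co3, Gm10925 at 323 CPM against 193 CPM for mt-Atp6, and Gm28661 at 236 CPM against 159 CPM for mt-Co2. Summing each gene with its copy left the log2 ratio for all cIHCs at -1.19 for mt-Co2, -1.40 for mt-Atp6, -1.03 for mt-Co3 and -0.77 for mt-Nd4l, so that mt-Nd4l, at -1.06 alone, was no longer 2-fold lower. In numbers 1 to 20 the copies held 39.2% of the sum for mt-Co2 and 70.7% for mt-Nd4l, and the log2 ratio went from -0.29 to -0.88 for mt-Co2, from -0.35 to -0.84 for mt-Co3, from -0.68 to -0.73 for mt-Atp6 and from -1.46 to -0.51 for mt-Nd4l. For mt-Nd3 the sum turned the direction there. Gm28438 had a lowest, median and highest level of 4.53, 22.7 and 78.7 CPM in OHCs, 3.63, 10.5 and 36.6 CPM in numbers 21 to 67, and 2.66, 176 and 274 CPM in numbers 1 to 20. With the copy added, mt-Nd3 had a log2 ratio of -0.24 for all cIHCs, of 1.17 in numbers 1 to 20 and of -1.37 in numbers 21 to 67. The direction of mt-Nd3 in numbers 1 to 20 thus depended on whether its nearly equal copy was counted with it. How reads were placed between the 2 rows was not tested. The total hardly depended on the copies: with all 7 added, the log2 ratio of the share was -0.79 for all cIHCs.

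A few cells placed more reads on these 5 mitochondrial rows. In numbers 1 to 20 the 5 genes together had a median of 0.490% of the counts of the 7 other messenger RNAs, but 2.37%, 2.18% and 1.95% in cIHCs 15, 17 and 20, with 0.647% in the cell that followed. OHC 4 had 2.63%, against an OHC median of 1.18%. In numbers 21 to 67 the median was 0.794% and the highest 1.17%. Cells 15, 17 and 20 were also the 3 highest of numbers 1 to 20 for mt-Co2, mt-Atp6 and mt-Co3. The highest cell alone gave 20.7%, 19.9% and 25.2% of the counts of these genes in that set, so their pooled log2 ratios there lean on few cells. The cIHC had the higher level in only 16.1%, 16.7% and 17.2% of the pairs with an OHC.

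Transfer RNA genes gave few counts, 0.0685% of the mitochondrial counts in OHCs and 0.0996% in all cIHCs. The cDNA kit, Smart-Seq HT, is known to prime at poly(A) tails, and mature transfer RNAs carry none. Whether these reads come from precursors was not tested, and neither was the part of priming in the shares of the ribosomal RNAs and mt-Nd6. In OHCs 21 of the 22 genes had a read in at least 1 cell, and mt-Tf, for phenylalanine, had none in any cell of either group. There were 2 counts of mt-Ts1 and 1 each of mt-Td and mt-Tk, all in OHCs, and ratios are not given for these.

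The 3 most abundant transfer RNAs are shown because the sets differ on them. They are read from the light strand, and the capitals mark the anticodon, which a search for a stem of 5 pairs closing a loop of 7 bases found once in each gene. They carry proline (mt-Tp, chrM:15356-15422), asparagine (mt-Tn, chrM:5089-5159) and glutamate (mt-Te, chrM:14071-14139) in GRCm38, all on the minus strand.
mt-Tp: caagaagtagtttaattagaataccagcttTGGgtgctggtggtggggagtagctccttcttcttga
mt-Tn: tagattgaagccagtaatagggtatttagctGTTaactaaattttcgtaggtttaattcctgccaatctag
mt-Te: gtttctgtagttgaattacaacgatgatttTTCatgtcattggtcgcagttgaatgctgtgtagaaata

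In the cIHCs numbered 1 to 20, mt-Tp was the only transfer RNA with any count, and the 21 others had none in all 20 cells. The counts of those 21 genes together ran from 2 over a median of 128 to 548 per cell in OHCs and from 3 over 159 to 746 in numbers 21 to 67. Over the 134867031 counts of numbers 1 to 20, their sum of 0 gives a log2 ratio to OHCs of at most -9.998, with 3 counts over the group in place of 0. The one gene that was read, mt-Tp, had a lowest, median and highest level of 7.09, 40.2 and 104 CPM there, 1.28, 23.3 and 76.7 CPM in OHCs, and 1.03, 16.2 and 65.9 CPM in numbers 21 to 67. Its ranges overlapped, with log2 ratios of 0.92 in numbers 1 to 20 and -0.58 in numbers 21 to 67. It is the last gene before the non-coding control region, where transcription starts. The messenger RNAs between the unread genes had reads in the same cells, mt-Nd2 for example at a median of 6504 CPM, and Rn7s2 separates the same 20 cells. What sets these libraries apart was not tested, and ratios of transfer RNAs are therefore read from numbers 21 to 67 only.

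In numbers 21 to 67 some transfer RNAs were higher and some lower than in OHCs. The 5 genes between mt-Nd2 and mt-Co1 (mt-Tw, mt-Ta, mt-Tn, mt-Tc and mt-Ty), a cluster chosen after its values were seen, summed to 14.2 CPM against 6.65 CPM in OHCs, a log2 ratio of 1.10; mt-Ty alone of the 5 was lower, at -0.65. Within it mt-Tn had a lowest, median and highest level of 0, 0.0701 and 44.8 CPM in OHCs and of 0, 9.49 and 26.3 CPM in numbers 21 to 67. It had reads in 16 of 32 OHCs and in 46 of 47 cIHCs of that set (14 and 46 after thinning every cell to 4670000 counts), so the OHCs spanned the whole range of the cIHCs. Its log2 ratio was 1.17, and that of mt-Tc, for cysteine, was 0.97, from 0.979 and 1.91 CPM. The 3 genes between mt-Nd1 and mt-Nd2, in contrast, were lower: mt-Ti by a log2 ratio of -2.15, mt-Tq of -2.09 and mt-Tm of -2.13, from levels of 1.14, 1.02 and 1.09 CPM in OHCs. For mt-Te the pooled levels were 6.72 and 3.57 CPM, a log2 ratio of -0.91. In the cluster after mt-Nd2, mt-Ta, mt-Tn, mt-Tc and mt-Ty had their best nuclear match in Cep295. The identity was 89.8%, 91.5%, 84.1% and 88.3%, and mt-Tw had no match. Pooled levels of Cep295 were 13.3 CPM in OHCs and 37.996 CPM in numbers 21 to 67, so it was higher there too. In numbers 1 to 20 it stood at 22.4 CPM. Whether reads were shared between Cep295 and these transfer RNAs was not tested. Among the 18 transfer RNAs with more than 3 counts in 1 or both groups, 12 were lower and 6 higher, of which 7 and 3 by at least 2-fold. Over all genes with at least 10 CPM, 40.5% were lower, 14.8% at least 2-fold lower and 26.9% at least 2-fold higher; most transfer RNAs were below that level.

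**Figure D5:**
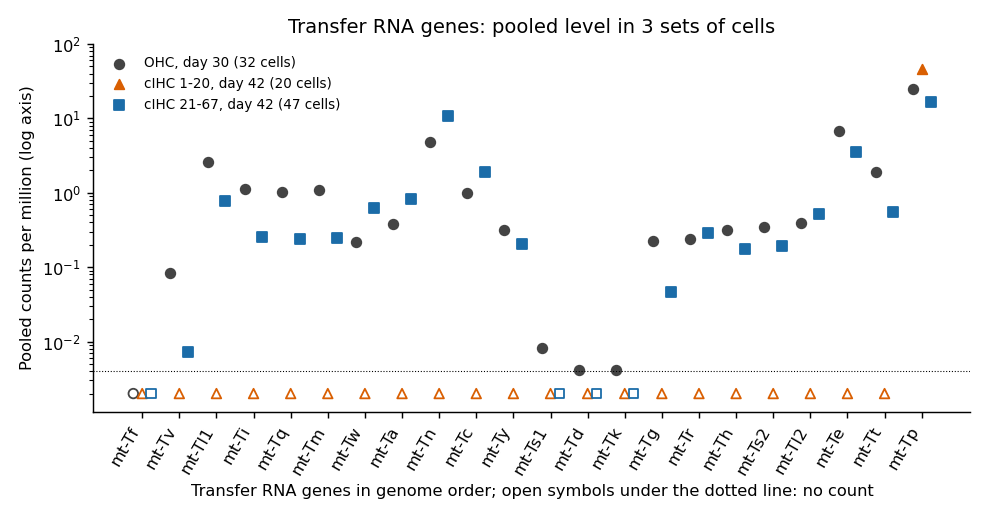
Pooled CPM (vertical axis, log scale) of the 22 transfer RNA genes in genome order in OHCs, cIHCs 1 to 20 and cIHCs 21 to 67; open symbols under the dotted line have no count. Cells 1 to 20 have counts for mt-Tp alone, and mt-Tn is higher in cIHCs 21 to 67 (10.7 CPM) than in OHCs (4.76 CPM).

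Over the cells of each set the mitochondrial genes varied together. The median Spearman rho over all pairs of the 15 genes was 0.53 in the 32 OHCs, 0.62 in the 20 cIHCs numbered 1 to 20 and 0.65 in the 47 others; the genes of a cell share its library and depth. In numbers 21 to 67 the genes that followed the rest of the mitochondrial counts most closely were mt-Nd4 (0.89), mt-Co1 (0.87) and mt-Nd1 (0.86), and those that followed them least were mt-Nd4l (0.37) and mt-Nd3 (0.50). In OHCs mt-Nd1 (0.81) and mt-Nd2 (0.80) came first and mt-Nd4l (0.41) last. Among numbers 21 to 67 the mitochondrial total was lower in cells with more Tbx2, both relative to nuclear counts, with a rho of -0.71, a relation looked at after other values were seen. Its rho was -0.51 with the total nuclear counts and -0.35 with the number of genes with reads. Tbx2 itself had a rho of 0.35 with total nuclear counts there. In numbers 1 to 20 the rho of the mitochondrial total with Tbx2 was -0.28. These are descriptions of cells that share libraries, and the part of depth was not tested.

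The nuclear genes whose level followed the mitochondrial total most closely over cells included several of the chromosome 1 copies. Of the 5 with the highest rho in OHCs, 3 were copies: Gm10925 (0.67), Gm28661 (0.64) and Gm28437 (0.62), followed by Ctsb and Scamp2. In all 67 cIHCs the 5 were Gm28438 (0.83), Rps28 (0.69), Gm10925 (0.68), Zmiz1 (0.66) and Hsp90aa1 (0.65). Ctsb and Scamp2 had rho of -0.40 and -0.31 in numbers 21 to 67, so their likeness was not shared by the cIHCs.

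Over all cIHCs, the nuclear-encoded partners of these proteins differed less between the groups. Of 77 nuclear subunits of complexes I to V with at least 10 CPM, 4 were at least 2-fold lower and 2 at least 2-fold higher in all cIHCs, against 14.3% and 26.3% of all genes. Their median log2 ratio was -0.24, beside 0.25 over all genes and -0.96 for the 13 mitochondrial messenger RNAs. In numbers 21 to 67 the medians were -0.14 and -1.35. In numbers 1 to 20 they were -0.49 and -0.20, so there the median of the nuclear subunits lay below that of the mitochondrial messenger RNAs. In that set 15 of 76 nuclear subunits were at least 2-fold lower, a share near the 17.7% of all genes. The lowest ratios were those of the complex I subunits Ndufa5 (647 CPM in OHCs, 233 CPM in cIHCs, log2 ratio -1.48) and Ndufb4 (-1.45). The highest were Uqcrb of complex III (1.20) and Cox7a1, a muscle-type subunit of complex IV (1.86 and 16.3 CPM, 3.14). The value of Cox7a1 rests largely on 1 cell in each group: 1 OHC held 100% of its OHC counts and 1 cIHC held 62.8% of its cIHC counts. All 4 subunits of complex II, which mitochondrial DNA does not encode, had log2 ratios from 0.02 for Sdhb to 0.86 for Sdhd for all cIHCs, where 41% of all genes were lower. In numbers 1 to 20 Sdhb was at -0.17.

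Genes whose products transcribe, process and translate mitochondrial RNA had median log2 ratios between 0.16 and 0.42 for all cIHCs, beside 0.25 for all genes. Of 77 mitochondrial ribosomal proteins 0 were at least 2-fold lower and 16 at least 2-fold higher in all cIHCs, against 14.3% and 26.3% of all genes, with a median of 0.42. Mrpl14 (-0.86) and Mrpl33 (-0.64) were lowest, and Mrps6 (3.15) and Mrpl10 (3.19) highest. In numbers 1 to 20 it was 5 lower and 9 higher of 74, against 17.7% and 24.9% of all genes, with a median of 0.14 beside 0.16. Of 20 genes for transcription and maintenance of mitochondrial DNA, 5 were at least 2-fold lower and 6 at least 2-fold higher in all cIHCs. Among all genes it was 14.3% and 26.3%, and the median of the 20 was 0.16. Mterf1a, a termination factor homologue, was lowest (14.3 and 3.13 CPM, -2.19), followed by the polymerase subunit Polg2 (-1.75). Tfb2m, which melts the mitochondrial promoters, was among the highest (3.95 and 28.1 CPM, 2.83) with the transcription factor Gabpa (3.14).

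Of 24 genes for processing and stability of mitochondrial RNA, 2 were at least 2-fold lower and 9 at least 2-fold higher in all cIHCs. Among all genes it was 14.3% and 26.3%, and the median of the 24 was 0.31. Elac2, which cuts the 3′ ends of transfer RNAs, and Mto1, which modifies them, were the 2 lower (-1.16 and -1.45). For each gene the highest OHC held much of the OHC counts, 51.1% and 41.4%. Without that OHC, and with all cIHCs kept, the log2 ratios were -0.18 and -0.73. Without the highest cell of both groups they were -0.51 and -0.79, so neither was 2-fold lower either way. Nsun4, a methyltransferase for the 12S ribosomal RNA, was 0.975 CPM in OHCs and 22.2 CPM in cIHCs (4.51). Prorp, the nuclease that cuts the 5′ ends, had no count in OHCs; at 20.96 CPM in cIHCs, and with 3 counts over all OHCs in place of 0, its log2 ratio was at least 10.72. Slirp, named after its values were seen, which with Lrpprc keeps mitochondrial messenger RNAs stable, was 9.25 CPM in OHCs, 7.36 CPM in numbers 21 to 67 and without a count in numbers 1 to 20. Of 37 assembly factors of the respiratory chain, 3 were at least 2-fold lower and 7 at least 2-fold higher in all cIHCs. The shares of all genes were again 14.3% and 26.3%. Atpaf2 (-1.41) and Coa7 (-1.20) were lowest, and Nubpl (3.87) and Cox17 (3.37) highest. Without its highest OHC alone, Coa7 was at -0.79, and without its highest cell in both groups at -0.95.

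Several of the highest ratios rest on an OHC level that came largely from 1 cell. For Nubpl, 100% of the counts in OHCs were in 1 cell, for Gabpa 99.8%, for Mrpl10 84.5%, for Nsun4 79.7% and for Tfb2m 43.1%. Without that cell the log2 ratios were 5.83 for Mrpl10, 6.76 for Nsun4 and 3.59 for Tfb2m, and Nubpl and Gabpa were left at or near 0 in OHCs. An alternative chosen after seeing the data dropped, for every gene, its top cell in both groups; the median over all genes was then 0.48 in place of 0.25. The counts lower and higher were then 0 and 22 of 77 ribosomal proteins, 4 and 8 of 20 genes for mitochondrial DNA, 0 and 10 of 24 for RNA processing and 2 and 9 of 37 assembly factors, against 12.2% and 35% of all genes. Those of the nuclear subunits were 4 and 3 of 77.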

How the data were processed

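The authors deposited a table of raw read counts per gene and cell for 32 OHCs and 67 cIHCs, and no normalized values were used. The submitters' processing notes name HISAT2 2.2.1, StringTie 2.2.1, featureCounts 2.0.1 and the build mm10, without their roles or order; the annotation, the strand setting and the treatment of reads that fit several places are not given in the sources used here. Every one of the 99 cells is a GEO sample without a named animal, so groups were compared as sums of cells, with no test. Levels are CPM of all counts of a cell or group. Log2 ratios have exact conditional binomial intervals and shares have Clopper-Pearson intervals, at 95%, covering counting error only; total counts per cell, which set that precision, ran from 4677682 to 13792672. A gene counted as changed past 2-fold, among genes with at least 10 CPM in either group. Genes with no count were set to 3 counts. The 15 ribosomal and messenger RNAs were all named; transfer RNAs were named as the 3 most abundant and the 3 with the lowest and highest ratio among those with at least 1 CPM, and from each nuclear list the lowest and highest ratios. Genes similar to the mitochondrial total were the 5 nuclear genes with the highest Spearman rho among those with at least 50 CPM.

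The members, lists and the sets of cIHCs 1 to 20 and 21 to 67 were chosen with earlier results of these data known; the sets were cut where Rn7s2 was under 10 CPM. Cells with sex-linked reads had at least 10 CPM. Coordinates and sequences are those of GENCODE M21 (GRCm38), and nuclear copies were found with BLAST+ 2.17.0 among its transcripts. Calculations used Python 3.11.15, numpy 2.4.6, pandas 2.3.3, scipy 1.17.1, R 4.3.3 and edgeR 4.0.16 (for TMM factors only). The calculation was run on simulated group sums with counting error only, without spread between cells or animals. Of 9172 genes, 200 were changed, all by more than the 2-fold cut. Of these 100% were called, 0 of the others were, and 95.1% of intervals held the true value. With such large changes and high counts this outcome was largely set in advance, and it says nothing on the spread between cells or animals. Alternatives tried were other averages over cells, other scalings, and leaving out cells, sets or gene classes. No column of the table lacked a sample.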

Additional observations from a re-analysis of the deposited data

How the results depend on the processing

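The lower mitochondrial share of cIHCs kept its direction under every alternative tried, but its size depended on which cIHCs were used. Beside the log2 ratio of -0.79, it was -1.09 with cIHCs 21 to 67 alone, -0.14 with cIHCs 1 to 20 alone, -0.41 in cells with Y-linked reads, whose 12 cIHCs are all among numbers 1 to 20, and -0.84 in cells with Xist reads. Without cIHC 11 it was -0.77 and with the 7 nuclear copies added -0.79; these 2 alternatives, the split by cell number and the adding of copies to single genes were chosen after seeing the data. It was -0.94 from medians and -0.74 from means over cells, -0.78 without the highest cell of each group, -0.87 without the 3 OHCs and 6 cIHCs with the fewest genes, -0.83 without the 15 most abundant nuclear genes and -0.63 for the 13 messenger RNAs alone.

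The median log2 ratio of the 13 messenger RNAs, -0.96, was -0.89 from mean CPM, -1.10 from median CPM, -1.15 with TMM, -1.16 with median-of-ratios, -1.001 relative to nuclear counts and -0.96 without each gene's highest cells. It was -0.38 in cells with Y-linked reads, -1.13 in cells with Xist reads, -1.35 and -0.20 with cIHCs 21 to 67 and 1 to 20, -0.94 without cIHC 11 and -0.77 with the copies of 5 genes added. The log2 ratio of the ribosomal RNA share of mitochondrial counts, -0.51, was -0.50 from medians, -0.495 without the highest cells, -0.996 and -0.37 in cells with Y-linked and Xist reads, and -0.30 and -0.90 with cIHCs 21 to 67 and 1 to 20. Of the 15 genes, 8 were at least 2-fold lower, 4 with cIHCs 1 to 20 alone, 10 with cIHCs 21 to 67 alone and 6 with the copies added, where mt-Nd3 (-0.24) and mt-Nd4l (-0.77) lost the call. Of 165 single gene values 159 kept their sign; mt-Co1 (0.18), mt-Nd2 (0.27), mt-Nd4 (0.42) and mt-Nd5 (0.54) were higher with cIHCs 1 to 20, and mt-Nd4 (0.10) and mt-Nd5 (0.26) in cells with Y-linked reads. The cause was not tested.

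No paired analysis was possible because no test was made and title numbers only count the cells of a group. With 1 sample a group, the spread between animals is unknown, and low counts limit mt-Nd4l, mt-Nd3 and mt-Atp8 in cIHCs 1 to 20, the transfer RNAs and nuclear genes such as Prorp, Nsun4 and Cox17. The nuclear lists without each gene's highest cells were also looked at after seeing the data.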

Other observations

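The nuclear genes that separate cIHCs 1 to 20 from the other cells also include Rn7s1, with pooled levels of 14.3 CPM in OHCs, 0.171 CPM in cIHCs 1 to 20 and 9.86 CPM in cIHCs 21 to 67, and Nudc-ps1, with 0.0785, 18.9 and 0.100 CPM. Both were named after their values were seen. Beyond the copies on chromosome 1, the best match of mt-Nd2 among nuclear transcripts, Gm13339 (96.7% identity over 510 bases), stood at 38.8 CPM in OHCs, 0.645 CPM in cIHCs 1 to 20 and 24.1 CPM in cIHCs 21 to 67, while mt-Nd2 itself was highest in cIHCs 1 to 20. Gm13340, which matches mt-Co1 at 97.6%, stood at 12.7, 1.32 and 12.5 CPM.

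Among the 20 cIHCs numbered 1 to 20, the nuclear genes whose level was most like the mitochondrial total were Gm29216 (rho 0.84), Gm28661 (0.80), Atp5e (0.79), Pgm2l1 (0.75) and Rpl38 (0.75). In the 47 others Romo1, which encodes a small protein of the mitochondrial inner membrane, followed (0.72) after 4 of the chromosome 1 copies. In OHCs the rho of Romo1 was 0.11 and that of Atp5e 0.19.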
